A study of Homo sapiens with 18 samples.

Results

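Gene expression was compared between K562 cells in which B2M had been silenced by TALE-based repressors and K562 cells in which it had been silenced by dCas9-based repressors. The members are the 3 TALE and the 3 dCas9 RNA-seq libraries, 6 of the 18 samples in the series, and all genes with enough counts to be tested, 13786 of the 55766 in the table. K562 is an established human chronic myeloid leukaemia line with erythroid and megakaryocytic features. All cells, the untreated ones included, carried a B2M:tdTomato transgene, in which the red fluorescent protein tdTomato reports on B2M. Per the labels, treated cells received 3 repressor plasmids together, with 1 µg of the plasmid for the DNMT3A-based repressor and the other plasmids in equimolar amount. The dCas9 mixture also held 250 ng of guide RNA plasmid. The third group, 3 untreated RNA libraries of the same cells, is quoted as background. It entered the model to share its estimate of the spread, and it also entered the count filter and the scaling. With the 6 silenced libraries alone, 13425 genes passed the filter. The labels do not state the time after treatment, whether silenced cells were sorted or cloned, or whether replicates were separate cultures, so p-values measure the spread between these libraries, which may be technical.

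TALE proteins read DNA through an array of protein repeats, each contacting a base, whereas dCas9 is a Cas9 without nuclease activity that is brought to its site by a guide RNA. Either can be fused to effector domains. The catalytic domain of DNMT3A methylates cytosines, DNMT3L stimulates it, and the KRAB domain, found in zinc finger proteins such as ZNF10, recruits TRIM28 and enzymes that methylate lysine 9 of histone H3. The product of B2M, beta-2 microglobulin, pairs with the heavy chains of MHC class I and is needed for their display at the cell surface.

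Sequence at the B2M promoter is shown because this gene is the target that the 2 groups have in common by design. It is taken from the GRCh37 genome and lies within a deposited region of methylated DNA capture (MeDIP) at chr15:45003405-45003721, on the plus strand. The stretch printed, chr15:45003415-45003714, ends 1 base before the start of B2M in RefSeq (GRCh38.p14, placed here by matching its sequence). The start of B2M in GENCODE, 45003556, falls inside the stretch. The binding sites of the repressors did not define the stretch and are not marked. The capitals mark its 19 CpG dinucleotides, the substrate of DNA methylation, and 58.7% of its bases are G or C.

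B2M promoter: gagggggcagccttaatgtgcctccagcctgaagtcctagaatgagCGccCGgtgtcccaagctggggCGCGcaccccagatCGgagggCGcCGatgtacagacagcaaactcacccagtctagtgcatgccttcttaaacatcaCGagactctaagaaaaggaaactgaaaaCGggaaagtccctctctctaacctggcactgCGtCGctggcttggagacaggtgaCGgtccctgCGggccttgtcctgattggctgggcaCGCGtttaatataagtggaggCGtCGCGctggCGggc

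Both platforms left low levels of the target RNA, and the difference between them was within its error. In CPM, read counts scaled to the size of each library, the B2M entry (chromosome 15, 45003556 to 45011049, plus strand) stood at 0.294, 0.539 and 0.370 in TALE replicates 1, 2 and 3 and at 0.185, 0.311 and 0.297 in the dCas9 replicates. These values rest on 3, 7 and 4 reads against 2, 3 and 3, whereas untreated libraries had 6.89, 5.93 and 6.53 CPM. B2M passed the count filter only through those untreated libraries. It was too low to be tested in the 6 silenced libraries alone, so its comparison between the platforms rests on few reads. The TALE and dCas9 ranges overlapped, and the log2 fold change of TALE over dCas9 was 0.62 (SE 0.56, edgeR adjusted p = 0.878), with a 95% interval from −0.56 to 1.81. The B2M_tomato entry, named for the transgene, was at 12.5, 14.6 and 18.2 CPM in the TALE libraries, 19, 15.9 and 13.9 in the dCas9 libraries and 359, 385 and 393 in the untreated ones. Here too the silenced groups overlapped, with a log2 fold change of −0.11 (SE 0.16, adjusted p = 0.928) and an interval from −0.44 to 0.22. In bulk libraries, fewer cells that express a gene and less RNA per cell cannot be told apart. Exact two-sided permutation tests of 3 against 3 gave p = 0.3 for B2M and p = 0.7 for B2M_tomato, where the smallest p possible is 0.1. The sign of the B2M_tomato difference turned when TALE replicate 1 (0.003) or dCas9 replicate 1 (0.02) was left out.

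At the promoter itself the MeDIP region held 7, 10 and 9 reads in the TALE libraries of that assay, 14, 13 and 16 in the dCas9 libraries and 0, 0 and 0 in the untreated ones. Scaled to depth, the TALE values were 3.23, 3.93 and 2.47 CPM and the dCas9 values 5.53, 3.38 and 6.91, so the ranges overlapped. The log2 fold change of TALE over dCas9 was −0.70 (SE 0.63, edgeR adjusted p = 1.00). A difference in promoter methylation between the platforms was not detectable at this depth.

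The sequences around the target were also measured. Of 13 neighbouring genes on chromosome 15, 5 had enough counts, and none was called or had groups apart. TRIM69 (45021186 to 45060027), the nearest tested gene beyond B2M, was at 5.19, 5.93 and 9.63 CPM in TALE and 7.69, 10.6 and 7.53 in dCas9 (log2 fold change −0.31, SE 0.23). EIF3J, a translation initiation factor subunit on the other side, was at 216, 167 and 172 against 170, 198 and 150 CPM.

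The RNA libraries held between 8460076 and 12050554 counts, of which the 13786 tested genes took nearly all. Genes of the mitochondrial genome made up 4.04% to 6.32% of the counts in the TALE libraries, 6.15% to 14.0% in the dCas9 libraries and 7.15% to 10.3% in the untreated ones. All 14 K562 marker genes were tested, and the erythroid regulator GATA1 stood at 102, 106 and 103 CPM in TALE and 107, 82.0 and 97.6 in dCas9. Of 14 lymphoid, 14 granulocyte and monocyte, and 13 epithelial and fibroblast markers, 3, 2 and 6 had enough counts, and their summed levels overlapped between the platforms. Those sums were 226 to 273 CPM in TALE and 214 to 250 in dCas9 for lymphoid markers, 35.9 to 54.6 and 41.4 to 50.6 for granulocyte and monocyte markers, and 503 to 620 and 578 to 696 for the epithelial and fibroblast set. Among the lymphoid set, the T cell receptor chain CD3E and, among the myeloid set, the granule enzyme MPO did not pass the filter, with 0 to 6 and 0 to 3 counts in any library, whereas CD3D, CD3G and the leukocyte phosphatase PTPRC were detected. CD3D was at 14.8, 17.0 and 25 CPM in TALE and 27.1, 29.6 and 21.2 in dCas9 (log2 fold change −0.46, SE 0.17, edgeR adjusted p = 0.745), with groups that overlapped, and the part of such markers in the results below was not tested.

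Across the transcriptome no gene was called. Of 13786 genes, 0 (0%) had a Benjamini-Hochberg adjusted p under 0.05 in edgeR's quasi-likelihood test, where the smallest adjusted p was 0.511, shared by 55 genes. At an unadjusted p under 0.05 there were 880 genes (6.38%), where 689.3 would fall by the threshold alone, 358 (2.6%) higher in TALE and 522 (3.79%) lower. DESeq2's Wald test also called 0, with 707 genes at an unadjusted p under 0.05 and a smallest adjusted p of 0.142. Groups did not overlap for 1293 genes (9.38%), 673 (4.88%) with every TALE library above every dCas9 library and 620 (4.5%) below. If the 6 libraries were interchangeable, groups of 3 against 3 would be apart for a share of about 0.1 of genes. Of the 880 genes, 529 had groups that did not overlap. With upper-quartile scaling the split of genes at an unadjusted p under 0.05 became 267 higher and 603 lower, 30.7% higher against 40.7%.

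The count of 0 depended on the libraries and on the filter. Without dCas9 replicate 1, 21 of 14057 genes were called (0.149%), 2 higher and 19 lower in TALE, and 11 of the 21 belong to the mitochondrial genome. With no filter on low counts, 77 of 41469 were called (0.186%), 5 higher and 72 lower, 22 of them mitochondrial. For genes such as MT-ND6 and NEAT1, tested in both fits, the SE fell while the log2 fold change hardly moved. MT-ND6 was at −1.42 (SE 0.29) with the filter and −1.40 (SE 0.15) without it, and NEAT1 at −0.90 (SE 0.22) and −0.88 (SE 0.14). Without TALE replicate 3 no gene was called, but the smallest adjusted p was 0.0524 and 1790 genes had an unadjusted p under 0.05.

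The spread inside each group was as large as most differences between them. The median SD of log2(CPM + 0.5) over genes was 0.192 in TALE and 0.192 in dCas9 (n = 3 each), whereas the median absolute difference between group means was 0.128. The difference was smaller than the larger of the 2 group SDs for 78.2% of genes. The data bound the differences more closely for abundant genes. The 95% interval of the log2 fold change lay within 1 either way for 11572 genes (83.9%) and within 0.5 for 7026 (51.0%). Within 1, the share was 16.8% among genes under 2 CPM and 99.6% among genes of 20 to 100 CPM.

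Distances between libraries overlapped within and between the platforms. The nearest pair of silenced libraries was TALE replicate 3 and dCas9 replicate 1, whose median absolute difference of log2(CPM + 0.5) was 0.135 (Pearson correlation 0.992 across genes). Within TALE this distance ran from 0.168 to 0.284, within dCas9 from 0.221 to 0.225, and between TALE and dCas9 from 0.135 to 0.255. TALE replicates 1 and 2, at 0.168, were closer to each other than either was to any dCas9 library, at 0.184 or more. By chi-square per degree of freedom, the mean was 23.3 within TALE, 34.9 within dCas9 and 37.6 between them, with 4.63 for the nearest pair, and each was above sampling noise. Genes are not independent replicates, so these values describe the libraries only.

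**Figure D1:**
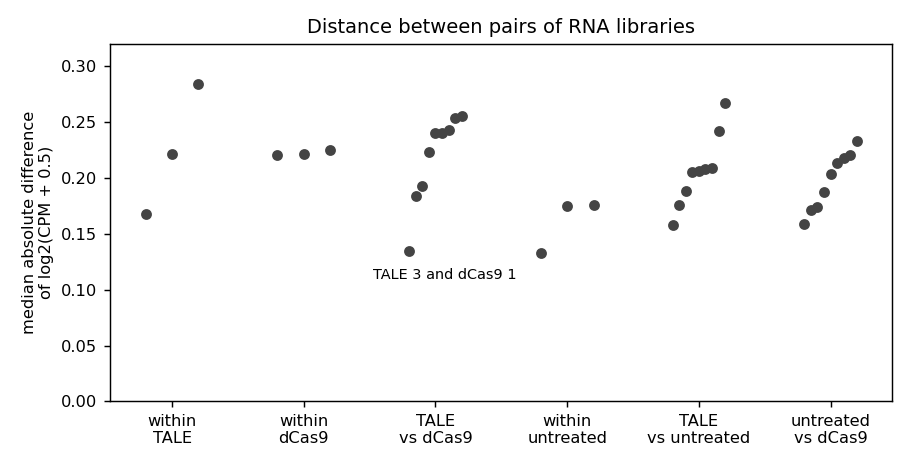
Median over genes of the absolute difference of log2(CPM + 0.5) for each pair of RNA libraries, by kind of pair; each point is a pair. Distances between TALE and dCas9 libraries (0.135 to 0.255) cover much of the range of distances within either group.

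Of the 162 genes whose fitted log2 fold change exceeded 1 in size, 140 were lower in TALE and 22 higher, and 137 had a mean under 5 CPM in the silenced libraries. At 20 CPM or more, 12 genes were lower in TALE by that much. Of these, 8 are genes of the mitochondrial genome, and the others were KCNQ1OT1, MTRNR2L2, RP5-857K21.7 and hsa-mir-6723. The library pattern of MTRNR2L2 and RP5-857K21.7 is described below with nuclear copies of mitochondrial sequence.

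The mitochondrial genome held the largest differences among abundant genes. It codes for 13 proteins of the respiratory chain, 2 ribosomal RNAs and a set of transfer RNAs, all cut from long transcripts of its 2 strands. All 13 of its messenger RNAs were lower in TALE with an unadjusted p under 0.05 (all tested genes, 3.79%), none was called, and 4 of the 13 had groups that did not overlap (all tested genes, 4.5%). Their log2 fold changes ran from −1.42 to −0.73, with a median of −1.13 beside 0.00 for all genes tested. Together they took 5.34%, 3.54% and 5.98% of CPM in TALE replicates 1, 2 and 3 (mean 4.95% ± 1.27, SD, n = 3) and 5.86%, 14.3% and 10.3% in the dCas9 replicates (mean 10.2% ± 4.22, SD, n = 3). Untreated libraries took 6.61%, 10.1% and 9.97%, with a mean between the silenced groups for 12 of the 13 genes.

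The 13 genes varied together from library to library. TALE replicate 2 was the lowest of the 9 libraries for all 13 genes, and dCas9 replicates 2 and 3 were above every other silenced library for all 13. The first dCas9 replicate stood with the TALE libraries: it was at or below the highest of them for 9 of the 13. The median log2 fold change of these genes was −1.43 without dCas9 replicate 1, −0.76 without dCas9 replicate 2 and −0.91 without TALE replicate 2. Transcripts of 1 genome are not independent of each other, and whether the share of mitochondrial RNA reflects the cells or RNA handling was not tested.

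Among the complex I subunits, MT-ND6, the only protein gene of the light strand, was at 384, 205 and 287 CPM in TALE and 387, 990 and 961 in dCas9. Its groups were apart by a narrow margin at the first replicates, with a log2 fold change of −1.42 (SE 0.29, edgeR adjusted p = 0.511). MT-ND5 stood at 3793, 2227 and 3950 CPM against 4311, 12015 and 8233 (−1.30, SE 0.32, adjusted p = 0.511). MT-ND4, MT-ND4L and MT-ND5 had the same arrangement, with every TALE library under the lowest dCas9 library, the first replicate. The complex IV subunit MT-CO1 showed a smaller difference, 9613, 7264 and 10744 CPM against 10689, 19341 and 16255 (−0.74, SE 0.25), and its groups overlapped. MT-CYB of complex III was at 2560, 1649 and 2736 against 2736, 6225 and 4637 CPM, and MT-ATP6 of the ATP synthase at 5025, 2770 and 5217 against 5087, 14558 and 9242. In each of these dCas9 replicates 2 and 3 were the high ones.

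Of the 24 mitochondrial ribosomal and transfer RNA genes, 19 were tested. None was called, 17 (89.5%; all genes, 3.79%) had an unadjusted p under 0.05 and were lower in TALE, and 12 (63.2%; all genes, 4.5%) had every TALE library below every dCas9 library. The median log2 fold change was −1.13. The small ribosomal RNA MT-RNR1 differed least, at 1334, 999 and 1841 CPM in TALE against 1721, 1787 and 1740 in dCas9 (−0.33, SE 0.21, edgeR adjusted p = 0.824). The large ribosomal RNA MT-RNR2 was at 1811, 1100 and 2440 against 2249, 4306 and 3212 CPM (−0.87, SE 0.28, edgeR adjusted p = 0.655). The glutamine transfer RNA MT-TQ had the smallest p of all genes, 0.000125, with 1.37, 1.16 and 2.5 CPM against 3.43, 6.52 and 4.96 (−1.57, SE 0.32), and its groups were apart.

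Nuclear copies of mitochondrial sequence were likewise high in dCas9 replicates 2 and 3. MTND5P11 (chromosome 5), MTND2P28 and MTATP6P1 (chromosome 1) were among the genes called without dCas9 replicate 1. So were MTRNR2L2 and RP5-857K21.7, which among the silenced libraries were highest in dCas9 replicates 2 and 3 and lowest in TALE replicate 2. Whether the reads of MTRNR2L2 and RP5-857K21.7 come from mitochondrial sequence was not tested. In the full set MTND2P28 stood at 9.02, 5.01 and 7.5 CPM in TALE and 8.34, 25.4 and 23.9 in dCas9 (log2 fold change −1.43, SE 0.36, adjusted p = 0.511). Near-identical copies share reads with the mitochondrial genome, so these values are uncertain as measures of the nuclear copies.

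Nuclear genes for the same organelle had medians near 0. Of 77 nuclear-encoded respiratory chain genes, 3 were higher and 4 lower in TALE at an unadjusted p under 0.05, with a median log2 fold change of −0.05, and the 95% interval lay within 1 log2 unit for 75 of the 77. CYC1, the cytochrome c1 of complex III, was at 140, 159 and 179 CPM in TALE and 162, 98.7 and 116 in dCas9 (0.34, SE 0.15). ATP5J2, an ATP synthase subunit, differed the other way, and was at 320, 363 and 554 against 541, 655 and 501 (−0.46, SE 0.18). Of 29 genes for mitochondrial transcription, replication and RNA handling, 1 was higher, C10orf2, the Twinkle helicase, and none lower, with a median of 0.06. Of 73 mitochondrial ribosomal proteins, 1 was higher and none lower (median 0.04).

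Long and small noncoding RNAs were lower in TALE more often than genes at large. Still, 280 of the 522 genes lower at an unadjusted p under 0.05 were protein coding. Classes rest on matched names. The 13 mitochondrial messenger RNAs were classed apart from protein coding, and 1648 genes, 111 of them lower, had no match. Among the 100 genes with the smallest p, 83 were lower in TALE, 20 belonged to the mitochondrial genome and 37 were protein coding, whereas 79.0% of the tested genes were protein coding. At an unadjusted p under 0.05 the 10886 protein-coding genes split evenly, 290 higher and 280 lower (median 0.01). Their groups were apart with TALE above for 564 (5.18%; all genes, 4.88%) and below for 399 (3.67%; all genes, 4.5%). Of 317 long noncoding RNAs, 1 was higher and 24 lower (7.57%; all genes, 3.79%), with a median of −0.16. Of 81 small noncoding RNAs, 0 were higher and 17 lower (21.0%), with a median of −0.32.

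Small nucleolar and Cajal body RNAs guide chemical modification of ribosomal and spliceosomal RNA. Of 410 listed, 52 passed the count filter, of which 0 were higher and 9 lower (17.3%; all genes, 3.79%) at an unadjusted p under 0.05, with a median of −0.35 that ran from −0.57 to −0.25 over the alternatives. SNORA22 was at 133, 134 and 101 CPM in TALE and 185, 312 and 168 in dCas9, with groups apart (log2 fold change −0.86, SE 0.22, adjusted p = 0.511). SCARNA5 (chromosome 2, 234184373 to 234184648) was at 5.88, 8.94 and 13.8 against 20.2, 18.9 and 14.1 CPM (−0.89, SE 0.24). Those groups were apart only by the margin between the third replicates. The summed level of the list had another order, with 0.490%, 0.667% and 0.769% of CPM in TALE and 0.860%, 0.537% and 0.317% in dCas9. Its library medians overlapped too, at −0.204, −0.272 and 0.161 in TALE and 0.339, −0.026 and 0.202 in dCas9.

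Of 42 tested small nuclear and structural RNAs, 0 were higher and 10 lower (23.8%; all genes, 3.79%), with a median of −0.34 (−0.64 to −0.19 over the alternatives). Library medians again overlapped, at −0.249, −0.393 and 0.160 in TALE and 0.341, 0.079 and 0.187 in dCas9. NEAT1, the scaffold of nuclear paraspeckles (chromosome 11, 65190245 to 65213011), was at 149, 112 and 91.7 CPM in TALE and 150, 250 and 258 in dCas9 (−0.90, SE 0.22, adjusted p = 0.511), while the untreated mean was 182 ± 52.3 CPM (SD, n = 3). Its groups touched at the first replicates, and NEAT1 was called when dCas9 replicate 1 was left out. MALAT1, another abundant nuclear RNA, was at 5627, 3565 and 3101 against 4505, 9263 and 7719 CPM, with groups that overlapped. RN7SK, the RNA that holds the elongation factor P-TEFb inactive, was at 3558, 4627 and 7244 against 8630, 6501 and 9120 CPM (−0.65, SE 0.28). RN7SL1, the RNA of the signal recognition particle, did not follow: it was at 13241, 18202 and 24001 in TALE and 30543, 8914 and 20763 in dCas9 (−0.12, SE 0.35). Per the labels, the kit used for amplification is one for fixed tissue, and how evenly it recovers short transcripts was not tested.

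**Figure D2:**
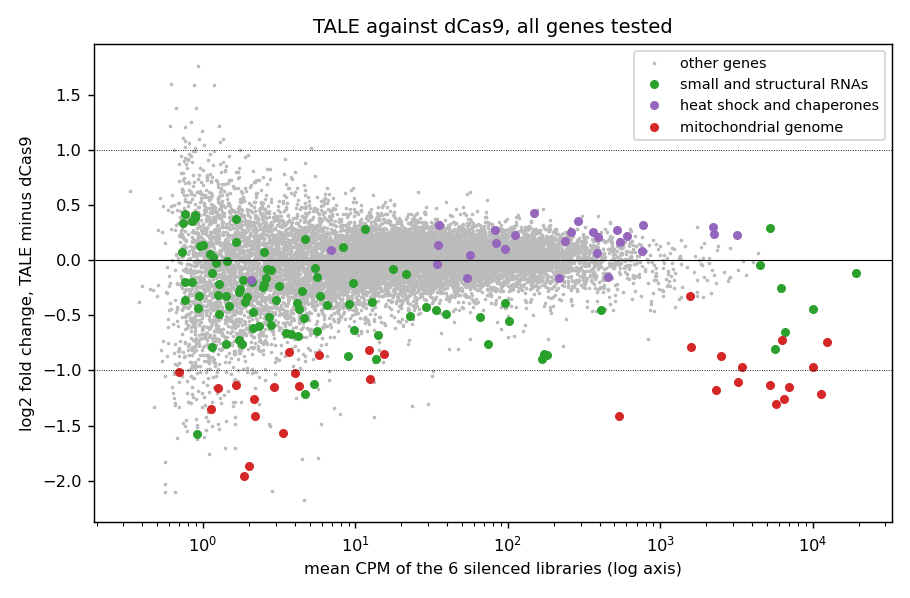
Fitted log2 fold change of TALE over dCas9 against the mean CPM of the 6 silenced libraries (log axis) for 13786 genes; red, mitochondrial genome; green, small nucleolar, nuclear and structural RNAs; purple, heat shock genes and chaperones; dotted lines at 1 and −1. All red points lie below 0, with medians of −1.13 for messenger RNAs and for ribosomal and transfer RNAs, and the purple points have a median of 0.19.

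Chaperones leaned the other way. Of 28 heat shock and chaperone genes, all tested and none called, 5 were higher in TALE at an unadjusted p under 0.05 (all genes, 2.6%) and 0 lower. Every TALE library lay above every dCas9 library for 9 of the 28 (all genes, 4.88%). The median log2 fold change was 0.19, and stayed between 0.15 and 0.25 over the alternatives. Library medians, relative to the mean of the silenced libraries, were 0.168, 0.073 and 0.035 in TALE and 0.021, −0.113 and −0.165 in dCas9. Untreated libraries, which had neither platform, were at 0.059, −0.132 and −0.169, so they spread over much of the same range. HSPH1, an HSP110 co-chaperone, was at 205, 166 and 139 CPM in TALE and 143, 125 and 112 in dCas9 (0.42, SE 0.15, adjusted p = 0.706), so TALE replicate 3 was under dCas9 replicate 1. HSPA1B, an inducible HSP70, was at 42.9, 38.2 and 36.1 against 32.2, 26.6 and 35.2 CPM (0.32, SE 0.13), with groups apart by a small margin. HSP90AB1, a constitutive HSP90, was at 2598, 2528 and 2230 against 2168, 2006 and 1802 CPM (0.30, SE 0.16), again with every TALE library above. For all 28 the 95% interval lay within 1 log2 unit.

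Cell cycle genes leaned the same way by a smaller amount, with libraries that overlapped. Of 60 cell cycle and mitosis genes, none was called, 5 (8.33%; all genes, 2.6%) were higher in TALE and 0 lower at an unadjusted p under 0.05, and 9 (15%; all genes, 4.88%) had all TALE libraries above. The median was 0.10 (0.07 to 0.14 over the alternatives). Library medians, relative to the mean of the 6 silenced libraries, were 0.081, 0.065 and 0.008 in TALE and 0.017, −0.104 and −0.087 in dCas9. MCM6, a subunit of the replicative helicase, was at 188, 196 and 181 CPM in TALE and 173, 143 and 138 in dCas9 (0.32, SE 0.12, adjusted p = 0.745). The kinase CDK4, which drives entry into S phase, was at 66.0, 76.2 and 68.8 against 67.6, 51.7 and 49.0 CPM, and its groups overlapped through dCas9 replicate 1. All 60 intervals lay within 1 log2 unit. Of 39 DNA damage and repair genes, 2 (5.13%) were higher and 0 lower (median 0.11), the 2 being TP53BP1 and RAD52. Of 31 proteasome subunits, 2 (6.45%) were higher, PSMB5 and PSMD1, and 0 lower (median 0.09). Their library medians also overlapped, at 0.009, −0.015 and 0.168 in TALE and 0.140, −0.087 and −0.153 in dCas9.

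Of 80 cytosolic ribosomal proteins, 0 were higher and 5 lower in TALE (6.25%; all genes, 3.79%), with a median of −0.11. The spread within TALE was wide for this family: replicate 3 was the highest TALE library for 76 of the 80 and replicate 1 the lowest of the 6 silenced libraries for 43. RPS20 illustrates it, at 632, 681 and 964 CPM in TALE and 977, 1237 and 929 in dCas9 (−0.47, SE 0.19). The median over alternatives ran from −0.30 to 0.01, so its sign was not stable. Pre-mRNA splicing factors, of which 35 were tested, had 0 higher and 1 lower, SNRPD1, a core protein of the snRNPs.

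Genes that share the repressors' domains were examined for an excess of reads. Of 11 domain donors and partners, 10 were tested, and none was called or had an unadjusted p under 0.05. DNMT3A was at 18.2, 19.2 and 14.7 CPM in TALE and 16.6, 18.3 and 21.2 in dCas9, and 17.2, 16.2 and 16.2 in untreated cells. ZNF10 was at 6.66, 4.55 and 5.65 against 4.63, 4.35 and 7.14 CPM. DNMT3L, which did not pass the filter, had 0, 1 and 0 reads in TALE and 0, 0 and 0 in dCas9. All of these ranges overlapped. TRIM28, the corepressor of KRAB proteins, was at 220, 219 and 179 against 183, 136 and 213 CPM (0.22, SE 0.15). Of 17 genes of DNA methylation and demethylation, none had an unadjusted p under 0.05, and all 17 intervals lay within 1 log2 unit. Of 34 genes of H3K9 and Polycomb chromatin, EED and BMI1 of the Polycomb complexes were higher and the demethylase KDM4B lower at an unadjusted p under 0.05.

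Genes that respond to foreign nucleic acid or present antigen were next. Of 20 tested genes of MHC class I and peptide loading, none had an unadjusted p under 0.05. HLA-C, a class I heavy chain, was at 2.74, 4.16 and 5.00 CPM in TALE and 3.24, 2.28 and 2.78 in dCas9 (0.52, SE 0.26). Of 27 tested interferon-stimulated genes, 2 (7.41%; all genes, 2.6%) were higher and 0 lower. They were the RNA sensor IFIH1, at 9.51, 7.71 and 8.98 against 6.02, 4.87 and 7.53 CPM, with groups apart, and IRF7, whose groups overlapped. GBP5 was at 4.61, 6.24 and 8.89 against 7.14, 6.73 and 7.04 CPM, and both were under the untreated 13.1, 19.8 and 20.9. Of 17 tested genes in the list for cytosolic nucleic acid sensing, which did not include IFIH1, none had an unadjusted p under 0.05. Of 11 ligands of natural killer cell receptors, 2 (18.2%; all genes, 3.79%) were lower in TALE, CLEC2D and ULBP1. CLEC2D was at 1.08, 0.385 and 0.278 against 1.30, 1.97 and 1.49 CPM, a level at which the error is large (−1.46, SE 0.48).

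Of 22 immediate early genes, 0 were higher and 3 lower (13.6%; all genes, 3.79%) at an unadjusted p under 0.05. EGR1, a zinc finger factor induced by growth signals, was at 95.4, 152 and 167 CPM in TALE and 158, 239 and 282 in dCas9 (−0.72, SE 0.20, adjusted p = 0.521). Only the first dCas9 value fell inside the TALE range. ATF3, a stress-induced factor, was at 6.66, 9.71 and 11.4 against 14.4, 11.3 and 17.8 CPM (−0.64, SE 0.21), and JUNB was the third. Of 29 genes of the integrated stress and unfolded protein responses, 0 were higher and 3 lower (10.3%; all genes, 3.79%), ATF3 with CEBPB and ATF5. Of 33 glycolysis and hypoxia genes, 0 were higher and 2 lower (6.06%; all genes, 3.79%). They were the oxygen sensor EGLN3, at 13.8, 19.6 and 23.0 against 25.1, 24.9 and 23.3 CPM, and the enolase ENO2. MIR210HG, the host transcript of the hypoxia-induced miR-210 (chromosome 11, 565657 to 568457), was at 0.588, 1.39 and 2.32 against 4.08, 4.24 and 3.97 CPM, with groups apart (−1.50, SE 0.35, adjusted p = 0.511).

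The erythroid programme showed no called difference. Of 10 globin genes, 1 was lower, HBA1, at 236, 257 and 352 CPM in TALE and 330, 455 and 354 in dCas9. HBG2, a fetal globin, was at 2644, 3024 and 4800 against 4507, 4211 and 2749 CPM, with TALE replicate 3 and dCas9 replicates 1 and 2 high. The assignment of reads among near-identical globin copies is uncertain. FTH1, the heavy chain of ferritin (chromosome 11, 61727190 to 61735106), was at 485, 632 and 771 against 864, 950 and 1289 CPM, with groups apart (−0.72, SE 0.20, adjusted p = 0.511). STEAP3, a ferrireductase of the transferrin cycle, was at 27.9, 27.7 and 20.7 against 21.6, 17.5 and 18.1 CPM (0.41, SE 0.14). Of 17 heme synthesis genes none had an unadjusted p under 0.05. Of 10 megakaryocyte and platelet genes, 2 (20%; all genes, 3.79%) were lower, ITGB3 and RAB27B.

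Other lists held few genes at an unadjusted p under 0.05 (all genes, 2.6% higher and 3.79% lower) and none called. Of 22 p53 targets, 15 BCL2 family regulators, 19 genes of BCR-ABL signalling and 26 red cell membrane genes, none had one. Of 19 genes of the MYC network, 1 was higher, the nucleolar protein NOP56, and 2 lower, MLXIP and MXD4. Of 34 translation factors, 1 was higher, EIF3C, at 35.5, 33.2 and 29.2 CPM in TALE and 21.3, 30.1 and 21.1 in dCas9 (0.43, SE 0.15). Of 56 tested replication-dependent histone genes, 0 were higher and 3 (5.36%) lower, HIST2H2AA4, HIST1H4K and HIST1H4J, which have near-identical copies. Of 16 erythroid transcription factors, 1 was lower, SPI1, at 30.5, 33.8 and 39.6 against 34.5, 47.1 and 51.5 CPM. Of 26 tested germline genes, MAGEB1 and CTAG2 were higher and none was lower.

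The genes with the smallest p on the higher side were RP11-567G24.1, WASH7P, MAGEB1, LIN28A, ZNF7, HSPA8P8, RP4-775C13.1, SAMD9, RCC1, IKBKAP, TUBBP1 and LDOC1L. Their log2 fold changes ran from 0.39 to 1.02, their unadjusted p from 0.000821 to 0.00280 and their adjusted p from 0.511 to 0.530. MAGEB1, a cancer-testis antigen on the X chromosome (30261832 to 30270157), had tight groups, at 17.8, 17.5 and 17.8 CPM in TALE, 12.2, 13.0 and 12.4 in dCas9 and 15.2, 15.3 and 15.4 in untreated cells (0.50, SE 0.13). LIN28A, an RNA-binding protein that blocks maturation of let-7 (chromosome 1, 26737308 to 26756219), was at 68.9, 56.4 and 52.8 against 47.7, 36.5 and 43 CPM (0.48, SE 0.13). RCC1, the exchange factor of the GTPase Ran, was at 84.8, 80.8 and 80.1 against 67.1, 62.5 and 58.1 CPM (0.39, SE 0.11), and it overlaps small nucleolar RNA genes on its strand. The ZNF-named zinc finger genes, of which 429 were tested, had 23 higher (5.36%; all genes, 2.6%) and 6 lower (1.40%; all genes, 3.79%), with a median of 0.03. ZNF134 was at 31.2, 23.9 and 24.1 against 18.6, 19.3 and 21.1 CPM.

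On the lower side the 12 genes with the smallest p were MT-TQ, MT-ND6, RP1-159A19.4, MT-TL1, MT-TK, EIF3EP1, MIR210HG, MTND5P11, PLEKHM1P, NEAT1, MT-ND5 and RP11-297N6.4, with log2 fold changes from −1.96 to −0.56 and an adjusted p of 0.511 each. EIF3EP1, a pseudogene of an initiation factor subunit (chromosome 6, 74001685 to 74003000), was at 61.5, 63.7 and 81.9 CPM in TALE and 96.2, 113 and 95.1 in dCas9 (−0.56, SE 0.13). Its reads may be shared with the parent gene. Of 16 tested imprinted genes, none was called, and the median log2 fold change was 0.03. At an unadjusted p under 0.05, 1 (6.25%; all genes, 2.6%) was higher in TALE and 2 (12.5%; all genes, 3.79%) lower. Every TALE library lay above every dCas9 library for 3 (18.8%; all genes, 4.88%) and below for 0. Among them, H19 was at 149, 188 and 140 against 171, 223 and 272 CPM, and KCNQ1OT1 at 35.6, 14.0 and 13.1 against 22.8, 52.9 and 53.4, both with groups that overlapped.

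Few MeDIP regions differed between the platforms. Of 105652 regions tested, 1 was called (0.000947%) in edgeR and 4723 (4.47%) had an unadjusted p under 0.05. The called region, singled out after its value was seen, spans nearly the whole mitochondrial genome. It was at 1341, 1175 and 1446 CPM in the TALE MeDIP libraries and 2142, 1818 and 2933 in the dCas9 ones, so the groups were apart, while the untreated libraries spread over both, at 953, 3190 and 1809. On the log2 scale TALE differed from dCas9 by −0.80 with an SE of 0.12 (edgeR, adjusted p = 0.000249), and the exact two-sided permutation test gave p = 0.1, the smallest possible. Without dCas9 MeDIP replicate 3 it was −0.58 with an edgeR adjusted p of 0.783 and was not called. It was called without any other single library, and with the 6 silenced libraries alone, at adjusted p from 1.84e-14 to 0.0496. Capture counts alone do not tell methylation from the amount of mitochondrial DNA, and whether MeDIP and RNA libraries of the same number share a culture is not given in the labels.

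For 4738 genes with a tested MeDIP region within 2 kb of a start site, the correlation of the 2 log2 fold changes of TALE over dCas9 was −0.0118 by Pearson and −0.0076 by Spearman, a description across genes that share their libraries. With 0 genes called in RNA and 1 region called in MeDIP, these values do not show whether methylation and RNA differences go together. Of the 162 genes named by the rule on small p and gene lists, 49 had such a region. The smallest MeDIP p among them was for LYZ (0.036) and EPOR (0.039), each with an adjusted p of 1.00.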

How the data were processed

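The 9 RNA-seq libraries (3 TALE, 3 dCas9, 3 untreated) were analysed from the deposited table of raw counts per gene, and the MeDIP-seq libraries from the deposited counts per region. Per the submitters' processing notes, STAR 2.3.0 and the build hg19 were used for RNA. The counter, annotation and use of strand are not given in the sources used here, so overlapping and antisense genes cannot be told apart. RNA was extracted as total RNA, amplified as cDNA with the Ovation Human FFPE system and sheared, per the labels' protocols.

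The test was edgeR 4.0.16 under R 4.3.3 (glmQLFit, glmQLFTest, TMM factors, filterByExpr with a minimum of 10 counts, prior count 0.125) in 1 model of group means over 9 libraries, with calls at an adjusted p (Benjamini-Hochberg) under 0.05. Each log2 fold change is TALE over dCas9, with SE from the test statistic. CPM are TMM-scaled, and SDs are of log2(CPM + 0.5). The pipeline was tested on simulated data. Of 13786 genes, 11279 were matched to GENCODE names by symbol and 859 by an older symbol, and positions come from GENCODE on GRCh37. Replicate numbers did not pair the libraries: same-numbered deviations correlated at −0.28, −0.16 and −0.19.

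The members, the 45 gene lists and the tests were chosen with earlier results of these data known, so lists are described by counts and medians without a test. Genes were named by rule: B2M and B2M_tomato, the 12 smallest p in each direction, up to 20 genes called under an alternative other than no filter, and up to 3 members of each list with the smallest p. The remaining genes given with values (among them other MT- genes, MALAT1, RN7SK, RN7SL1, DNMT3A, ZNF10, DNMT3L, HBG2, GBP5 and HSP90AB1) were chosen after their values were seen. Alternatives were other scalings (DESeq2 size factors, upper quartile), DESeq2 1.42.0, no filter or a stricter one, the 6 silenced libraries alone, a replicate block, each library left out and the mitochondrial genome left out. Some list members are not reported here. For the MeDIP region of the mitochondrial genome, leaving out each library and fitting the 6 silenced libraries alone were added after seeing the data.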

Additional observations from a re-analysis of the deposited data

How the results depend on the processing

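The count of 0 genes called was also given by the other scalings, the stricter filter, the 6 silenced libraries alone, DESeq2 and the fit without the mitochondrial genome. It was 77 with no filter on low counts, and ran from 0 to 21 over the fits without 1 library. With the replicate number as a block, 0 genes were called and 835 had an unadjusted p under 0.05, against 880 without it. In deviations from the group mean, no TALE library correlated best with the dCas9 library of its own number. Over the fits without 1 library, the log2 fold change changed sign for B2M_tomato (−0.26 to 0.0200), EIF3J (−0.0242 to 0.21), HBA2 (−0.00371 to 0.36), CD33 (−0.0481 to 0.19), RN7SL1 (−0.47 to 0.32), DNMT3A (−0.18 to 0.00377), ZNF10 (−0.0795 to 0.31), HBG2 (−0.43 to 0.0349) and GBP5 (−0.35 to 0.11), and the cause was not tested. The correlation of promoter MeDIP with RNA was 0.0225 with regions within 1 kb. The B2M entry was too low to be tested under the stricter filter or in the 6 silenced libraries alone. Depth limits the genes under 2 CPM most.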
